A study of Mus musculus with 17 samples.

Results

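The expression of 4 clock-linked transcription factor genes, Dbp, Tef, Hlf and Nfil3, was examined in the dissected hippocampus of mice that had lost sleep. They were read by 8 of the 45101 probe sets of the array, namely every probe set whose annotation gave one of these symbols and no other: 2 for Dbp, 3 for Tef, 2 for Hlf and 1 for Nfil3. The sleep-deprived group held 8 male C57BL/6J mice kept awake in their home cages for 5 h by gentle handling in the light phase. The undisturbed group held 9 males of the same strain that stayed in their home cages, and dissections alternated between the groups. No animal carried a labelled mutation, and all 17 were aged 2 months by their sample labels (2 to 4 months by the growth protocol); they lived singly under 12 h of light and 12 h of dark, and had been handled daily for 6 days. Each animal's total RNA was hybridised to its own Affymetrix mouse array, whose short probes are grouped into sets, so that several sets may measure a gene. No mice were handled for that time and let sleep, so handling and lost sleep cannot be told apart. A series of times of day was not sampled, so a changed level cannot be told from a shifted rhythm. The 4 genes were chosen by their measured differences between these groups, sleep-deprived against undisturbed. Those differences are therefore given as a description, with no p-value, and no call on them is used as support.

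Dbp, Tef and Hlf encode the PAR bZIP proteins, basic leucine zipper activators named after a domain rich in proline and acidic residues. They bind a DNA element called the D-box and pass the rhythm of the molecular clock on to tissue genes. Nfil3, also called E4BP4, encodes a basic leucine zipper repressor of the same element, and in clock models it opposes the activators. Dbp is transcribed under the clock activators CLOCK and BMAL1, which bind E-boxes, while Nfil3 is a target of the REV-ERB and ROR nuclear receptors. Mice that lack Dbp, Tef and Hlf together have seizures, and their brains have less pyridoxal kinase, the product of Pdxk, which makes the cofactor form of vitamin B6.

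The start regions of the 4 genes are shown because genes of one family differed in opposite directions. Each sequence runs 5′ to 3′ on the gene's own strand, from 250 bases before to 50 bases after a start site, and comes from RefSeq on GRCm38.p6. All 4 genes matched by symbol, Tef with 2 start sites. The capitals mark matches to the motifs searched.
Dbp, chr7:45704997-45705296, plus strand: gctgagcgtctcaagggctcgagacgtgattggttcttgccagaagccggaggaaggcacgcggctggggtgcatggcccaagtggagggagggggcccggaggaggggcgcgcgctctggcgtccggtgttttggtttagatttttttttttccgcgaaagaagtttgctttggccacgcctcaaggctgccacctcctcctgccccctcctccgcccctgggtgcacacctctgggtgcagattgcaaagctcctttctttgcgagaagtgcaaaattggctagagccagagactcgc
Tef, upstream start, chr15:81802423-81802722, plus strand: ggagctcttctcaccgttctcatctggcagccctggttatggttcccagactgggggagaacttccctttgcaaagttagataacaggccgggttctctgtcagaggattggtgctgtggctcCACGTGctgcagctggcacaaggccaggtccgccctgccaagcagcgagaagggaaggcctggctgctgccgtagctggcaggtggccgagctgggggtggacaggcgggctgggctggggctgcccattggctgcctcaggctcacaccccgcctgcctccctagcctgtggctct
Tef, downstream start, chr15:81811164-81811463, plus strand: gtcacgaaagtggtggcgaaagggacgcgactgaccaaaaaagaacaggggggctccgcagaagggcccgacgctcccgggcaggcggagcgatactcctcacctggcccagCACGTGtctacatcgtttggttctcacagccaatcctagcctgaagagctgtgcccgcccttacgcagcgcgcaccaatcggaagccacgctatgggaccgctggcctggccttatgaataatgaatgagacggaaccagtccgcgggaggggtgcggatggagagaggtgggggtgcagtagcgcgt
Hlf, chr11:90390868-90391167, minus strand: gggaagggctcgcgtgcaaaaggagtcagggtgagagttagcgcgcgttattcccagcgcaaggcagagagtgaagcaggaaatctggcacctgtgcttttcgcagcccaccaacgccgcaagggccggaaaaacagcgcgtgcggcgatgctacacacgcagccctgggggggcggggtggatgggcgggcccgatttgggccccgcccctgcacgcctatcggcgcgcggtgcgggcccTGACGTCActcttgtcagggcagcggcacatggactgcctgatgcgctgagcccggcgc
Nfil3, chr13:52980990-52981289, minus strand: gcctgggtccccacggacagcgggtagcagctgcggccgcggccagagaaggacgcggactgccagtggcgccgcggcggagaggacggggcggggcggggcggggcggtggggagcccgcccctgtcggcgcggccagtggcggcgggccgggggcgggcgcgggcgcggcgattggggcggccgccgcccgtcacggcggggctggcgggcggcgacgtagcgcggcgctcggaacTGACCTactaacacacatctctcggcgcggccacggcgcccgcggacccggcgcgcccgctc

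Both Tef windows held an E-box (CACGTG), beginning 127 bases before the upstream start and 138 bases before the downstream start, and 7.15% of 32817 start windows of the mouse hold that word. The Hlf window held the cAMP response element TGACGTCA, which begins 9 bases before the start and is found in 1.79% of windows. In the Nfil3 window the nuclear receptor word AGGTCA lay on the opposite strand, beginning 12 bases before the start. That word is found in 16.3% of windows. The Dbp window matched none of the words searched. Sequence outside the windows was not searched, so this does not show that Dbp lacks an E-box. The other words were CACGTT, the D-box forms TTATGTAA and TTACGTAA, and the palindromic glucocorticoid response element, which are held by 4.69%, 1.05% and 0.00914% of windows. Both strands were read, no match overlapped another, and the Nfil3 window had the highest GC content of the 5, 81.7% against a median of 52.7% over all windows. A matched word describes the window and is not a site shown to be bound.

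The arrays were alike in scale, with medians between 6.14 and 6.22 on the log2 scale. Of the markers of hippocampal neurons all 8 lay above the median signal and none passed the test. Choroid plexus, a tissue beside the hippocampus, varied between dissections: the mean of its 8 measured markers ran between 5.47 and 7.45 in sleep-deprived animals and between 5.52 and 7.15 in undisturbed ones. It lay above 7 in sleep-deprived replicates 3, 5 and 7 and undisturbed replicate 9. None of these 8 markers passed the test, but 2 of 5 endothelial markers were called lower and 1 of 6 astrocyte markers higher. The endothelial mean ran between 8.27 and 8.46 in sleep-deprived and between 8.32 and 8.68 in undisturbed animals, and the astrocyte mean between 10.12 and 10.41 in sleep-deprived and between 10.20 and 10.28 in undisturbed animals. The part of these cells in the results below was not tested. Sleep-deprived replicate 5 also had the largest excess of 3′ over 5′ signal at the Gapdh and actin control probe sets, a sign of RNA quality, at 0.42 against 0.20 to 0.30 in the 16 other arrays.

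In the limma fit over all probe sets, 4 of these 8 fell under an adjusted p of 0.05, both of Dbp as lower and 1 each of Tef and Nfil3 as higher. Over the whole array 816 of 45037 probe sets passed, or 1.81%, of which 0.584% of all tested were higher and 1.23% lower. The groups did not overlap in 2 of the 8 probe sets, and in 0.486% of all probe sets. Without the 4 arrays rich in choroid plexus markers, a setting chosen after the data were seen, 167 probe sets were called. Both Dbp sets were among them and the Tef and Nfil3 sets were not. Most of the arrays left out were sleep-deprived. The part of the lower number of arrays in this drop was not tested. With the choroid plexus mean as a covariate and no array left out, 653 probe sets were called. Both Dbp sets and these Tef and Nfil3 sets were among them. Since the genes were chosen for these differences, nothing is read from the counts or from which sets they hold. A bulk array cannot tell fewer cells of a type from less RNA per cell.

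**Figure D1:**
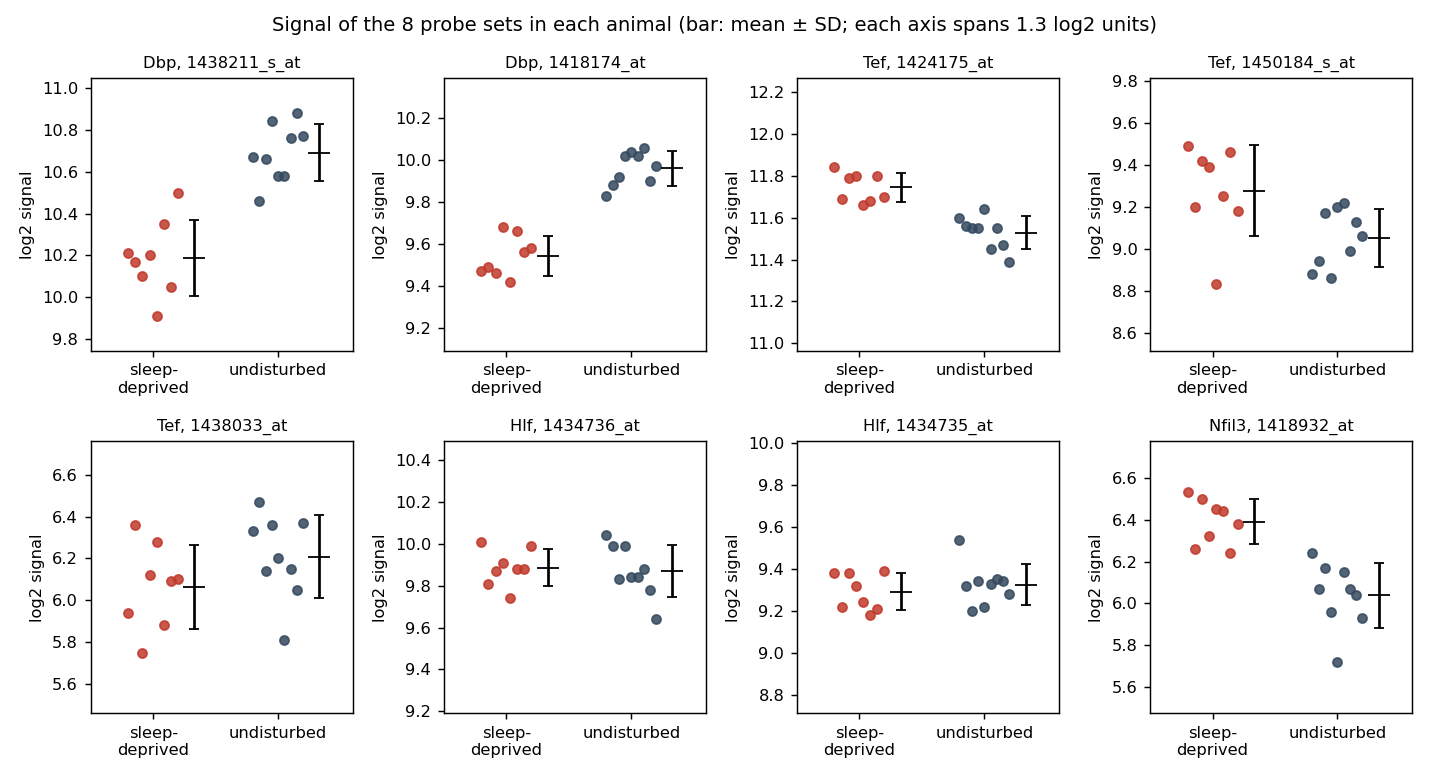
Log2 signal of each animal (points) for the 8 probe sets of Dbp, Tef, Hlf and Nfil3, with sleep-deprived animals (red, n = 8) left of undisturbed animals (blue, n = 9) and the group mean ± SD as a bar; all panels span the same range of log2 signal. Both Dbp sets lie lower and Nfil3 higher after sleep deprivation, the Hlf groups overlap, and the Tef sets differ among themselves.

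Dbp was the member with the largest difference. Its brighter probe set, 1438211_s_at, read 9.91 at the lowest, 10.19 at the median and 10.50 at the highest in sleep-deprived animals, against 10.46, 10.67 and 10.88 in undisturbed animals. Only sleep-deprived replicate 8, at 10.50, reached the undisturbed range, whose lowest value was 10.46 in replicate 2. The group means were 10.19 ± 0.18 (SD, n = 8) and 10.69 ± 0.14 (SD, n = 9). The log2 difference was -0.50 (SE 0.072), a 1.42-fold lower signal, and the rank was 16 from the lowest of 45037 probe sets. The dimmer set, 1418174_at, read 9.42, 9.53 and 9.68 in sleep-deprived animals, against 9.83, 9.97 and 10.06 in undisturbed animals. Here the groups were separated by a gap of 0.15, and the difference was -0.42 (SE 0.048), 1.34-fold lower. Both sets gave the same direction, with all 8 sleep-deprived animals below the undisturbed mean in both. Without the 4 arrays rich in choroid plexus markers the differences were -0.39 (SE 0.075) and -0.38 (SE 0.058). With group means removed, the brighter set had r = -0.38 with the 3′ to 5′ measure and -0.36 with the choroid plexus mean over the 17 arrays, and the dimmer set -0.15 with each. Sleep-deprived replicate 5, the lowest array in both Dbp sets, was the highest in both measures, and their part in its low values was not tested.

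Tef encodes the thyrotroph embryonic factor, a PAR bZIP activator like Dbp, yet its brightest probe set lay higher after sleep deprivation. That set, 1424175_at, read 11.66, 11.75 and 11.84 in sleep-deprived animals (lowest, median and highest), against 11.39, 11.55 and 11.64 in undisturbed animals. The groups did not overlap, but the gap was only 0.020. The means were 11.74 ± 0.068 (SD, n = 8) and 11.53 ± 0.079 (SD, n = 9), a difference of 0.22 (SE 0.044) or 1.16-fold. This was the tightest of the 8 sets, with a pooled SD within groups of 0.074, where the median over all probe sets was 0.12. Without the arrays rich in choroid plexus markers the difference was 0.20 (SE 0.050).

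The other Tef sets differed from each other in sign. The set 1450184_s_at read 8.83, 9.32 and 9.49 in sleep-deprived animals, against 8.86, 9.06 and 9.22 in undisturbed animals, a difference of 0.23 (SE 0.079) about as large as in the brightest set but with a wider spread. In it 7 of 8 sleep-deprived animals lay above the undisturbed mean, and the lowest value of all was that of sleep-deprived replicate 5, the array with the largest 3′ to 5′ excess. Without replicate 5 the difference was 0.29 (SE 0.065), and with the 3′ to 5′ measure as a covariate it was 0.25 (SE 0.061). The dim set 1438033_at ran the other way, at 5.75, 6.09 and 6.36 in sleep-deprived animals, against 5.81, 6.20 and 6.47 in undisturbed animals (difference -0.14, SE 0.087), with groups that overlapped almost wholly. Which of the Tef transcripts each set reads was not analysed here.

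Hlf, the hepatic leukemia factor gene and the remaining PAR bZIP activator, showed no difference beyond the spread between animals. Its brighter set, 1434736_at, read 9.74, 9.88 and 10.01 in sleep-deprived animals, against 9.64, 9.84 and 10.04 in undisturbed animals. The difference was 0.017 (SE 0.054). The sign turned, to -0.0007, when arrays were centred on their medians, and to -0.012 without undisturbed replicate 9. The set 1434735_at read 9.18, 9.28 and 9.39 in sleep-deprived animals, against 9.20, 9.33 and 9.54 in undisturbed animals, a difference of -0.033 (SE 0.049).

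Nfil3, the repressor, was higher. Its single probe set, 1418932_at, was among the dimmer sets and read 6.24, 6.41 and 6.53 in sleep-deprived animals, against 5.72, 6.07 and 6.24 in undisturbed animals. The ranges touched at 6.24, where sleep-deprived replicate 7 met undisturbed replicate 1, and the other 7 sleep-deprived animals lay above all undisturbed ones. The means were 6.39 ± 0.11 (SD, n = 8) and 6.04 ± 0.16 (SD, n = 9), a difference of 0.35 (SE 0.063) or 1.28-fold. It ranked 72 from the highest of 45037 probe sets. Without the arrays rich in choroid plexus markers it was 0.34 (SE 0.076).

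Animal by animal, the brightest sets gave one pattern in the sleep-deprived group. In 8 of 8 sleep-deprived animals Dbp lay below, and Tef and Nfil3 above, the undisturbed mean. That was also true of 3 of 9 undisturbed animals, replicates 1, 2 and 3. The joint count of 8 follows from the same count in each gene, and the genes were chosen for these differences. It is a description only. The ranges of this pattern's parts met at its edges: undisturbed replicate 2 lay 0.23 below the mean at Dbp, and undisturbed replicate 1 lay 0.20 above it at Nfil3. Dbp was lowest in sleep-deprived replicate 5, 0.78 log2 units below the undisturbed mean, and nearest to it in replicate 8, 0.19 below. Nfil3 ran between 0.20 above in replicate 7 and 0.50 above in replicate 1. Tef ran between 0.13 and 0.31 above, and Hlf between -0.13 and 0.14 relative to it.

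**Figure D2:**
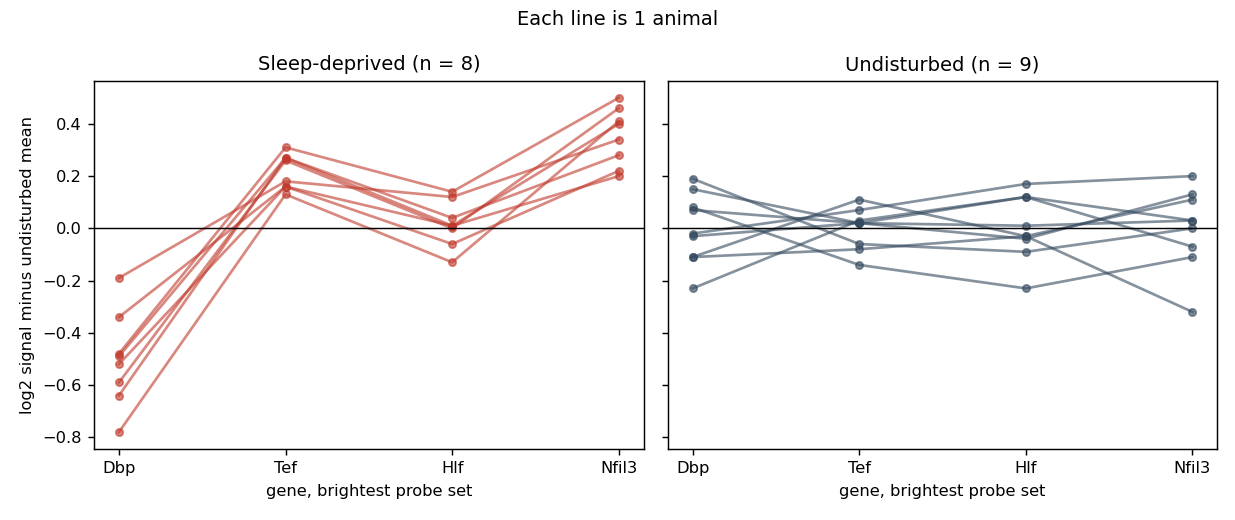
Log2 signal of the brightest probe set of each gene minus its undisturbed mean, with 1 line per animal, for sleep-deprived animals (left, n = 8) and undisturbed animals (right, n = 9). All 8 sleep-deprived lines lie below zero at Dbp and above zero at Tef and Nfil3. At Hlf they lie on both sides, between -0.13 and 0.14.

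Whether the genes also varied together between animals of one group is a separate question, which the choice of genes did not use. Group means were removed and the 6 pairs of brightest sets were correlated over the 17 arrays (permutation within groups, 100000 resamples, two-sided, adjusted over 6 pairs). Dbp and Nfil3, which lay apart between the groups in opposite directions, had no detectable relation between animals: r = -0.019 (95% interval -0.51 to 0.48, rho = -0.11, permutation p = 0.94 for r and 0.69 for rho, adjusted 0.94 and 0.86). Within sleep-deprived animals alone r was 0.025 and within undisturbed animals alone -0.056 (exact permutation p = 0.95 and 0.89). The interval is wide, so 17 animals leave room for a moderate relation in either direction.

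Tef and Hlf were the 1 pair that passed, at r = 0.66 (rho = 0.66, permutation p = 0.0069 for r and 0.0070 for rho, adjusted 0.041 and 0.042). The values were 0.59 in sleep-deprived and 0.70 in undisturbed animals (unadjusted exact permutation p = 0.14 and 0.037, adjusted 0.42 and 0.22). Without the 2 arrays farthest from the median of Tef, r was 0.41 (permutation p = 0.14), so the call rests on those arrays. Without undisturbed replicate 9 r was 0.51 (adjusted permutation p = 0.33). Leaving out any 1 of 10 other arrays also put the adjusted p over 0.05, with r still between 0.61 and 0.67, and r was 0.10 when every set of a gene was averaged. Dbp with Hlf had r of 0.71 in sleep-deprived and -0.30 in undisturbed animals (unadjusted exact permutation p = 0.047 and 0.43, adjusted 0.28 and 0.64). The difference between the groups was not tested. Over all 17 arrays r was 0.14 (rho = 0.098, permutation p = 0.57 and 0.71, adjusted 0.86 for both). That r was -0.038 without sleep-deprived replicate 5, -0.0013 without sleep-deprived replicate 8, and -0.029 with the choroid plexus mean as a covariate. The other pairs, Dbp with Tef (r = -0.22, rho = -0.22), Tef with Nfil3 (r = -0.036, rho = 0.029) and Hlf with Nfil3 (r = 0.31, rho = 0.24), did not pass, with adjusted permutation p of 0.79, 0.94 and 0.79 for r and 0.84, 0.92 and 0.84 for rho.

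**Figure D3:**
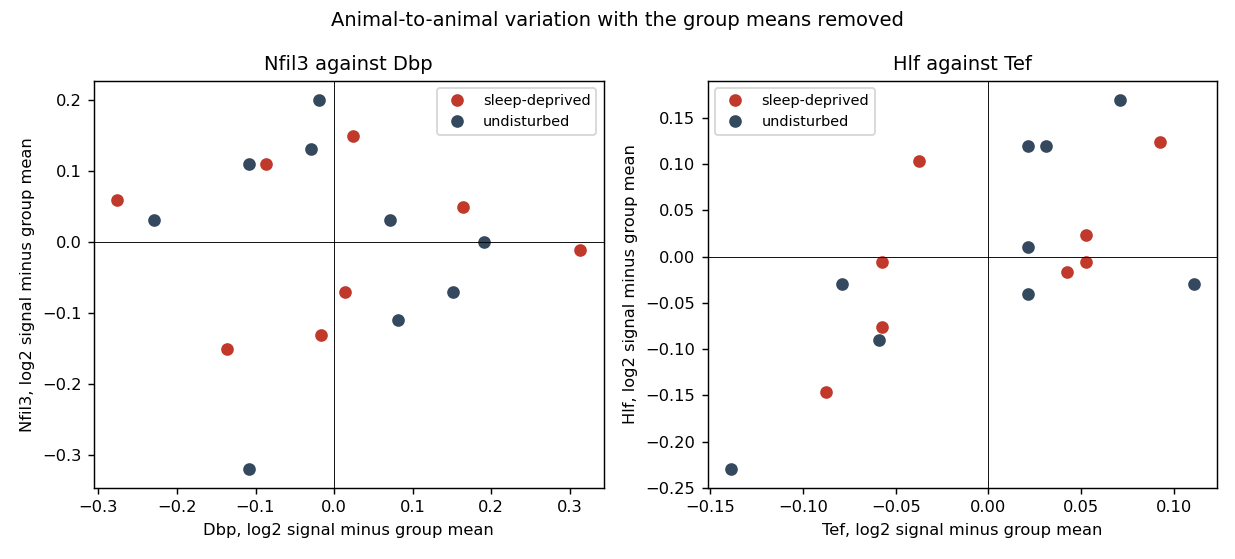
Log2 signal minus the group mean in each animal, Nfil3 against Dbp (left) and Hlf against Tef (right), with sleep-deprived animals in red and undisturbed animals in blue. The left cloud has no slope (r = -0.019); the right one slopes upward (r = 0.66) and leans on undisturbed replicate 9 at its lower left corner.

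Probe sets of the same gene were compared in the same way, a comparison added after the data were seen (5 pairs, adjusted over 5). The 2 Hlf sets had r = 0.58 between animals (rho = 0.54, permutation p = 0.021 and 0.028, adjusted p for r = 0.053) and the 2 Dbp sets r = 0.39 (rho = 0.38, permutation p = 0.15 for both, adjusted p for r = 0.21), and neither passed. The dimmer Tef sets ran against each other, at r = -0.63 (rho = -0.66, permutation p = 0.0088 and 0.0069, adjusted p for r = 0.044; r = -0.61 without the 2 farthest arrays). The brightest Tef set had r = 0.35 with 1450184_s_at and -0.060 with 1438033_at (adjusted permutation p = 0.21 and 0.82, rho = 0.35 and -0.076). The measure of 3′ over 5′ signal had r = -0.72 with 1450184_s_at and 0.36 with 1438033_at, and its part in their relation was not tested.

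The 4 genes were then set beside 18 partner genes, most of them of the clock and its outputs, with Fos, Tsc22d3, the cold-inducible gene Cirbp and the choroid plexus marker Ttr, again within groups. Of the 72 pairs 10 had an unadjusted permutation p under 0.05 and 0 passed after adjustment (lowest 0.089), and with rank correlation these counts were 6 and 0 (lowest 0.053). The partner of Hlf with the largest Pearson r was the clock repressor gene Per2 (r = 0.73, rho = 0.73, permutation p = 0.0012 and 0.0015, adjusted 0.089 and 0.053), while by rank Usp2 was larger (rho = 0.78, r = 0.69, adjusted permutation p = 0.053 and 0.14). The pair of Hlf and Per2 reached r = 0.85 in sleep-deprived and 0.67 in undisturbed animals, and 0.64 without the 2 farthest arrays. Within the groups neither passed after adjustment (unadjusted exact permutation p = 0.0084 and 0.049, adjusted 0.3 and 0.38). Under other normalizations and probe set choices on the 17 arrays r ran from 0.40 with all probe sets averaged (adjusted permutation p = 0.52) to 0.77 after median centring (adjusted permutation p = 0.040), with 0.56 after quantile normalization and 0.59 after cyclic loess (adjusted permutation p = 0.28 and 0.31). With the choroid plexus mean as a covariate r was 0.63 (adjusted permutation p = 0.17). Without the arrays rich in choroid plexus markers it was 0.56 (adjusted permutation p = 0.35). The brighter Hlf set had r = -0.47 with the choroid plexus mean, whose part in this pair was not tested. Hlf correlated widely, however: the 5 and 95 percentiles of its r over 18192 genes were -0.62 and 0.69. By Pearson r the first partners of the others were Per2 for Dbp (r = 0.47, rho = 0.43, adjusted permutation p = 0.36 and 0.53), Clock for Tef (r = 0.53, rho = 0.55, adjusted permutation p = 0.30 and 0.37) and Npas2, a relative of Clock, for Nfil3 (r = 0.59, rho = 0.49, adjusted permutation p = 0.17 and 0.45). Without the 2 farthest arrays these r were 0.22, 0.57 and 0.29.

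Over the brighter 8884 genes, the patterns most like each gene between animals of a group, over the 17 arrays, were as follows. Akr1a1 (r = 0.89), Tra2b (0.84) and Wapl (0.84) were nearest to Dbp. Entpd6 (r = 0.90), Ston2 (0.83) and Eif5 (0.83) were nearest to Tef. Ubap2 (r = 0.92), Phrf1 (0.91) and Epha5 (0.91) were nearest to Hlf, and Ydjc (r = 0.82), Sema3e (0.79) and Hsph1 (0.77) to Nfil3. None is a clock gene of the lists used here. The arrays share their normalization, and these values are the highest of many, so they are a description.

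Genes around these factors were counted through the brightest probe set of each gene, in the same fit. The lists were drawn up with earlier results of these data known, so a list's count is no independent evidence of its direction. Of 18193 genes 3.97% were called, 1.25% higher and 2.73% lower, with a median difference of 0.0016. Of 21 measured genes of the core clock loop, which drives the D-box factors, 0 were called higher and 2 lower, with a median of -0.025. These were Ciart, a repressor of CLOCK and BMAL1 (-0.22, SE 0.057, limma adjusted p = 0.035), and Cry2 (-0.18, SE 0.051, limma adjusted p = 0.048), below the undisturbed mean in 8 and 7 of 8 sleep-deprived animals. Both lie close to the threshold, and over probe sets these same sets missed it (limma adjusted p = 0.058 and 0.079). Without 1 array the count lay between 0 and 4: it was 4 without undisturbed replicate 5, 2 without sleep-deprived replicate 8, and 0 or 1 without any of the 15 other arrays. It was 0 without the arrays rich in choroid plexus markers.

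The rest of the loop was not called. Cry1 (-0.21, SE 0.060, limma adjusted p = 0.051) and Nr1d1, which encodes the REV-ERB alpha repressor (-0.19, SE 0.057, limma adjusted p = 0.071), missed the threshold with 8 of 8 sleep-deprived animals below the undisturbed mean. Per1, a clock repressor gene that also responds to activity, had a difference of 0.16 (SE 0.078, limma adjusted p = 0.28). For Per2, Clock and Arntl, the gene of BMAL1, the differences were 0.0097, -0.0078 and -0.098 (SE 0.081, 0.047 and 0.050), none past the threshold.

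Among 11 rhythmic output genes, genes known to cycle with the clock in other tissues, 3 were called higher and 3 lower, with a median of -0.023. Usp2, a ubiquitin protease gene, averaged 9.43 ± 0.16 in sleep-deprived and 9.96 ± 0.20 in undisturbed animals (SD, n = 8 and 9), a difference of -0.53 (SE 0.078, limma adjusted p = 0.00047) close in size to that of Dbp. Its other probe set gave -0.37 (limma adjusted p = 0.0012 over probe sets). Tspan4, a tetraspanin gene, averaged 7.54 ± 0.12 in sleep-deprived and 7.83 ± 0.13 in undisturbed animals (SD, n = 8 and 9), a difference of -0.29 (SE 0.059, limma adjusted p = 0.0070), and Ciart was the third. The higher genes were Tsc22d3, a glucocorticoid-induced gene (0.51, SE 0.094, limma adjusted p = 0.0033), Cdkn1a, a cell cycle inhibitor gene (0.23, SE 0.066, limma adjusted p = 0.048), and Lonrf3 (0.16, SE 0.045, limma adjusted p = 0.042). Cdkn1a and Lonrf3 lie close to the threshold, and over probe sets these same sets missed it (limma adjusted p = 0.077 and 0.072). Their other sets gave 0.11 and 0.22 (limma adjusted p = 0.49 and 0.022 over probe sets). The other sets of Tsc22d3 gave 0.48, 0.16 and 0.16 (limma adjusted p = 0.0096, 0.22 and 0.36 over probe sets). For each of the 6, all 8 sleep-deprived animals lay on the same side of the undisturbed mean. The count was 3 without the arrays rich in choroid plexus markers.

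**Figure D4:**
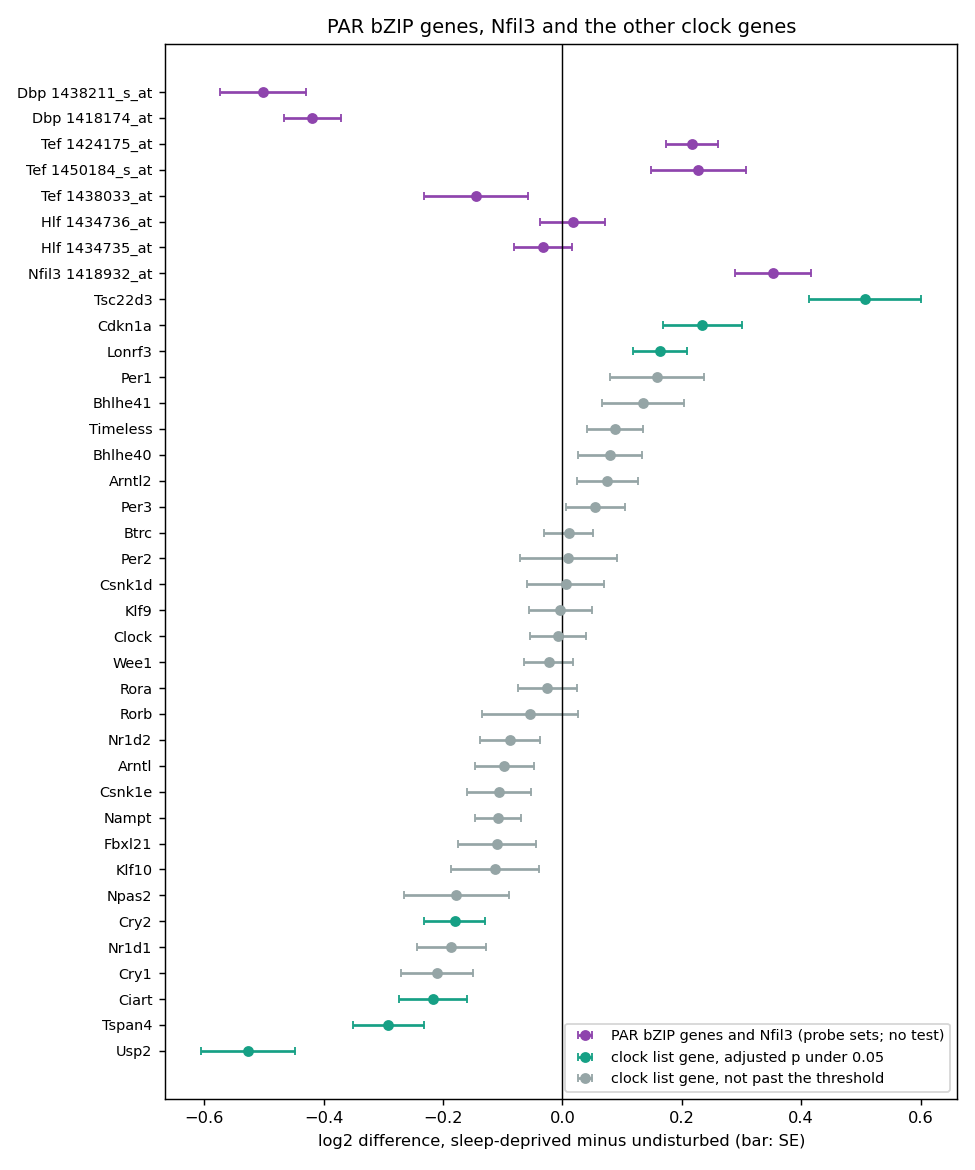
Log2 difference, sleep-deprived minus undisturbed, for the 8 probe sets of the PAR bZIP genes and Nfil3 (purple) and for the brightest set of each core clock and rhythmic output gene (green past an adjusted p of 0.05, grey not), with bars for the SE. Dbp and Usp2 lie farthest left (-0.50 at the brighter Dbp set and -0.53), Nfil3 and 2 of 3 Tef sets lie right of zero, and both Hlf sets lie close to it.

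A further list, named for inputs of Nfil3 and clock resetting, held genes of the activity and glucocorticoid responses. Whether they act on Nfil3 was not tested, and Tsc22d3 is counted among the rhythmic outputs as well. Of these 12 genes 4 were called higher and 0 lower, 8 had an unadjusted limma p under 0.05, and the median was 0.15. Fos, an immediate early gene induced by neuronal activity, averaged 8.14 ± 0.29 in sleep-deprived and 7.41 ± 0.35 in undisturbed animals (SD, n = 8 and 9), a difference of 0.74 (SE 0.13, limma adjusted p = 0.0025). Crem, a cAMP-responsive regulator (0.31, SE 0.062, limma adjusted p = 0.0070), and Creb1, which encodes the factor that binds the cAMP element (0.18, SE 0.043, limma adjusted p = 0.019), were called with Tsc22d3. Another set of Crem gave 0.40 (limma adjusted p = 0.00025 over probe sets), while its 2 dim sets gave -0.026 and 0.031. The other sets of Creb1 gave 0.051 to 0.17, and none passed (limma adjusted p = 0.19 to 0.75 over probe sets). Sgk1, another glucocorticoid-induced gene, had 0.52 (SE 0.15) and missed the threshold (limma adjusted p = 0.054).

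Genes reported as targets of these factors, mostly from liver, did not pass. Of 8 measured targets 0 were called by limma, 2 had an unadjusted p under 0.05, and an unequal-variance test also called 0. These 2 were Alas1, of heme synthesis (-0.15, SE 0.052, limma adjusted p = 0.13), and the hormone gene Fgf21 (0.16, SE 0.051, limma adjusted p = 0.087). Fgf21 was dim, with means of 5.16 in sleep-deprived and 5.00 in undisturbed animals. Cyp7a1 and Nr1i3 were dimmer still, and all of these lay below the array medians. Signals that low may not follow a change in RNA. Per1 and Per2 are in this list and also in the core clock loop. Pdxk, the target named above in brain, averaged 10.87 ± 0.11 in sleep-deprived and 10.81 ± 0.11 in undisturbed animals (SD, n = 8 and 9), a difference of 0.061 (SE 0.054, limma adjusted p = 0.58). Among 5 measured members of the related C/EBP family, also leucine zipper factors, limma and the unequal-variance test called 0 and 1 had an unadjusted p under 0.05, Cebpg (0.11, SE 0.050, limma adjusted p = 0.24). Calls over all genes leaned lower, at 227 higher and 496 lower, and the lean moved with the scaling: it was 335 and 390 after quantile normalization, 340 and 432 after cyclic loess, and 142 and 611 after median centring.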

How the data were processed

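Total RNA of the hippocampus of 17 mice was hybridised to 1 array each. The deposited log2 values per probe set were made by the authors with RMA in the affy package, per the submitters' processing notes; no versions are given there. That the scale is log2 was read from the range of the values, 2.90 to 14.8, as no label names it. RMA is a method that corrects background, normalizes across arrays and summarises a set's probes, and its fold changes tend to be compressed. No value was missing and no arrays were identical.

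Differences, sleep-deprived minus undisturbed, came from limma 3.58.1 in R 4.3.3 on all 17 arrays, with Benjamini-Hochberg adjustment over 45037 non-control probe sets, or over 18193 genes at their brightest single-symbol probe set, at a threshold of 0.05. By the platform annotation, 34945 probe sets had 1 symbol, 932 several and 9160 none. Intervals are 95%. The members and gene lists were chosen with earlier results of these data known. Named were every probe set of the members, the called genes of each list (4 by adjusted p where more than 5 were called), the partner with the largest absolute r for each member, and the 3 genes most alike per member among those at or above the median signal, clone and predicted names skipped. Cdkn1a, Lonrf3 and the list genes given without a call were added after their values were seen. Replicates are separate animals by their labels. The labels do not say whether the replicate numbers pair animals, and the main fit left them out. The 8 same-number correlations ran between -0.068 and 0.393, and 3 were over 0.1. Of the 8 sleep-deprived arrays, 1 was closest to the undisturbed array of its own number. No batch is given by the labels. Scripts were tested on simulated data. Alternatives changed normalization, covariates, filters, test, threshold, probe set choice and arrays. The number of arrays limits the precision.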

Additional observations from a re-analysis of the deposited data

Results flagged for a closer look

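In the Tef probe set 1450184_s_at, sleep-deprived replicate 5 read 8.83 and lay far below the other 7 animals of its group: its gap to the nearest was 0.531 of the group's range, against a critical value of 0.526. That array also had the largest 3′ to 5′ excess, and its part in the low value was not tested. In the Hlf probe set 1434735_at, undisturbed replicate 1 read 9.54 and lay above the other undisturbed animals, with a gap of 0.546 of the range against 0.493. These were 2 of 16 groups checked, and chance alone would flag about 0.8 of them.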

How the results depend on the processing

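The direction of both Dbp sets, of the Tef sets and of Nfil3 held in all 29 alternatives run. Some of these, such as the signal filters and the unequal-variance test, leave a difference as it is and could not turn it. Since the genes were chosen for these differences, nothing is read from the count. The brighter Hlf set had differences between -0.012 and 0.056. Called probe sets numbered 816, and 1332 with a mean signal of at least 6, 541 by the unequal-variance test, 246 at a threshold of 0.01 and 167 without the 4 arrays rich in choroid plexus markers. Called genes numbered 723, and 467, 211 and 185 under the last 3 of these. The core clock count of 2 was 1 after quantile normalization, with the RNA quality covariate or at the most variable probe set, 4 after median centring or the signal filter, and 0 with the choroid plexus covariate, the unequal-variance test, a threshold of 0.01 or without the choroid-rich arrays. The 6 rhythmic outputs were 3 under the last 3 of these. Leaving out 1 array gave 563 to 889 probe sets, 481 to 817 genes (481 without undisturbed replicate 4), 0 to 4 core clock genes, 3 to 6 rhythmic outputs (3 without sleep-deprived replicate 1 or 7 or undisturbed replicate 3, 7, 8 or 9) and 0 to 1 targets (1 without sleep-deprived replicate 1). With the replicate number as a block, although no label says that it pairs animals, there were 959 probe sets, 913 genes and 1 target. In that setting the correlations were 0.099 for Dbp with Tef and 0.54 for Tef with Hlf (adjusted permutation p = 0.58). They were -0.12 for Hlf with Nfil3, -0.70 for Tef with Nfil3 (adjusted permutation p = 0.58), -0.37 for Dbp with Nfil3 and 0.51 for Hlf with Per2. Dbp with Tef (-0.22) was -0.55 after cyclic loess and -0.46 after quantile normalization. Dbp with Hlf (r = 0.14) turned to -0.16 after quantile normalization, -0.12 after cyclic loess, -0.029 with the choroid plexus covariate, -0.30 in undisturbed arrays and -0.20 without the 2 farthest arrays. Dbp with Nfil3 (-0.019) turned to 0.091 after median centring, 0.017 with the RNA quality covariate, 0.056 without the choroid-rich arrays, 0.025 in sleep-deprived arrays and 0.054 without the 2 farthest. Tef with Hlf (0.66) missed the threshold at 0.49 after quantile normalization, 0.45 after cyclic loess, 0.65 with the RNA quality covariate, 0.10 over all probe sets, 0.48 without the choroid-rich arrays, 0.59 in sleep-deprived arrays, 0.70 in undisturbed arrays and 0.41 without the 2 farthest. Tef with Nfil3 (-0.036) turned to 0.029 by rank, 0.071 after median centring and 0.13 in sleep-deprived arrays, and was -0.48 over all probe sets. Leaving out 1 array gave -0.44 to -0.16 for Dbp with Tef, -0.038 to 0.30 for Dbp with Hlf, -0.19 to 0.047 for Dbp with Nfil3, 0.51 to 0.76 for Tef with Hlf, -0.19 to 0.34 for Tef with Nfil3 and 0.17 to 0.39 for Hlf with Nfil3. The cause of these changes was not tested.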
